A study of Mus musculus with 6 samples.

Results

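The genes described here encode the presynaptic vesicle release machinery, the proteins with which an axon terminal stores, releases and recovers vesicles of neurotransmitter. The members were a list of 43 genes taken by symbol, of 29547 rows in the deposited table, and were placed in 5 steps, namely vesicle proteins (12 genes), the SNARE complex and its regulators (9), the active zone (11), calcium sensors (6) and endocytosis (5). RNA that co-precipitated with phosphorylated ribosomes was measured in mouse vBNST (the bed nucleus of the stria terminalis, its ventral division, a part of the extended amygdala) in 3 libraries labelled Con and 3 labelled CS, all taken 90 min after a test with a conditioned cue. Phosphorylation of the ribosomal protein S6, on which such precipitations rely, rises in active neurons. The antibody catalogue number in the labels goes up by the same step from each library to the next, as a spreadsheet fill would, so the antibody used is not certain from them. The labels give no strain, age or sex, do not say whether CS stands for the CS+ or the CS- test or what the Con animals received, and do not say whether animals were pooled or whether each library is a different animal. The p-values therefore cover the spread between these libraries alone, which may be technical. No library is labelled as input RNA, so no enrichment by the precipitation could be measured.

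At a terminal, synapsins tether vesicles in a reserve cluster, and RIM, Munc13, ELKS, liprin, Bassoon and Piccolo proteins build the active zone where vesicles dock and are primed. Vesicle synaptobrevin (Vamp genes) pairs with syntaxin and Snap25 of the plasma membrane into the SNARE complex that fuses the membranes, complexins clamp and promote that step, and synaptotagmin triggers it when calcium enters. NSF and the SNAP adaptors then take the complex apart, and dynamin, amphiphysin, endophilin, synaptojanin and AP180 recover the membrane. The proteins act in axon terminals, while most of their RNA lies in the cell body, so RNA of this region comes mainly from cells whose bodies lie there.

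Libraries held between 765769 and 2342686 assigned reads, with 2 of the 3 CS libraries deeper than every Con library. Levels are in RPKM, reads per kilobase of exon and per 1e6 assigned reads, divided by a factor per library, the median over rows of its deviation from the row mean (log2 scale); the CS libraries lay 0.37 higher than the Con libraries on the log2 scale before this median scaling, so a member's direction is relative to the typical row. Every change is CS minus Con, and changes were tested across 20550 rows with limma on log2(RPKM + 0.1) at a Benjamini-Hochberg adjusted p threshold of 0.05. Means are given ± SD over the 3 libraries of a group. Limma voom, a model that weights the reads recovered from the table by their precision, was run beside it on the 10463 rows with at least 60 reads. All 43 members passed both filters, with 88 (Sypl) to 10545 (Cplx2) reads over the 6 libraries. Of the neuronal markers Rbfox3, Tubb3, Map2, Nefl and Snhg11 none was at 0, and their summed level was 568 to 703 RPKM in Con and 389 to 439 in CS. Nefl, at 464 and 229 RPKM on average, made up the larger part of that sum. The estimates of Rbfox3 and Nefl (2) lay below 0 and those of Tubb3, Map2 and Snhg11 (3) above it, so the lower sum did not hold for most of these markers. The 3 GABAergic markers (Gad1, Gad2 and Slc32a1) summed to 29.8 to 35.9 RPKM in Con and 32.8 to 49.01 in CS, and the 3 vesicular glutamate transporter genes to 8.28 to 33.5 and 8.27 to 19.2. Neurons of this nucleus are mostly GABAergic. Oligodendrocyte markers (6 genes) summed to 169.5 to 291 RPKM in Con and 73.6 to 159 in CS, with 5 of 6 lower and 1 higher, and the 6 astrocyte markers to 64.1 to 77.3 and 64.5 to 81.1. The 6 microglia markers summed to 33.0 to 49.7 RPKM in Con and 26.4 to 35.7 in CS, although 4 of the 6 estimates lay above 0, and the 3 endothelial markers to 0.931 to 5.86 and 0.685 to 2.44. The part of these shifts in the results below was not tested.

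More members of the release machinery lay above the typical row in CS than below it, and 4 had all CS libraries below all Con libraries: the calcium sensor gene Syt1, the endocytic genes Synj1 and Snap91, and Sypl. The number of such lower members was not above the background of all rows. In the limma model of log2 RPKM no member passed the threshold over all rows, against 0.968% of all rows; unadjusted p-values under 0.05 were found for 7 higher members (3.77% of all rows) and 4 lower ones (8.77% of all rows; 12.5% in either direction). With voom 4 members passed as lower (9.3% of the 43, against 6.29% of all rows) and 2 as higher (4.65% against 0.258%; 6.55% of rows in either direction), the latter being Sncb and Ppfia2. In precipitated RNA of many cells, without input RNA, fewer cells of a type, less RNA per cell and a smaller precipitated part cannot be told apart. Of the 43 estimates 28 lay above and 15 below 0, with a median log2 fold change of 0.24, where the median over all tested rows was 0.04 and 52.0% of rows lay above 0. The CS libraries all lay above the Con libraries in 14 members (32.6%, against 11.6% of rows with at least 60 reads) and all below in 4 (9.3% against 14.9%). In either direction the background was 26.5% of those rows and 19.1% of all tested rows. The backgrounds here and below were not matched for read depth. The members had a median SE of 0.22, against 0.34 over tested rows with at least 60 reads. The part of this precision in the number of separated members was not tested.

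The balance between higher and lower members depended on the scaling. In the values as deposited 36 estimates lay above and 7 below 0 (median 0.62), and voom scaled by library totals alone passed 7 higher members (Sncb, Ppfia2, Ppfia3, Sv2a, Rims2, Sv2c and Dnm1; 16.3%, against 2.60% of rows) and 0 lower ones (2.42% of rows were lower, and 5.02% passed in either direction). For the 4 members that passed as lower with median scaling, the CS libraries as deposited also all lay below the Con libraries, as in 8.31% of rows with at least 60 reads, while 27 members lay above in every CS library (29.5% of rows; 37.8% in either direction). The estimates of Syn3, Syngr3, Sv2b, Vamp2, Unc13b, Rims1, Pclo and Erc2 lay below 0 with median scaling and above 0 as deposited.

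**Figure D1:**
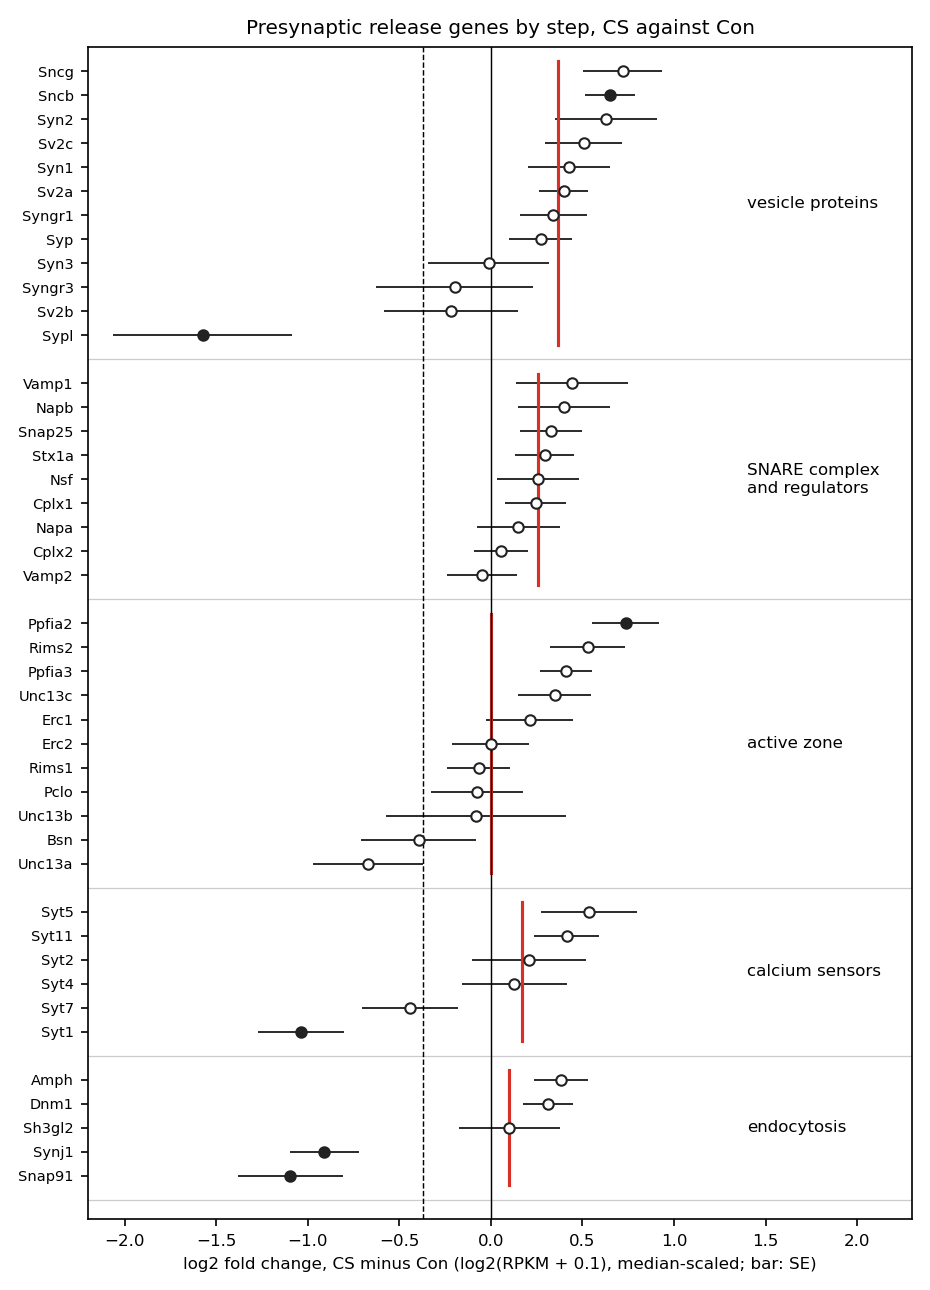
Log2 fold change of each of the 43 members in CS against Con (points; bars, SE of the limma fit), grouped by step with the median of each step as a red line. Filled points passed the voom threshold; the solid line is no change after median scaling and the dashed line, 0.37 lower, is no change in the values as deposited. Syt1, Synj1, Snap91 and Sypl lie at -0.91 or below, left of both lines, and the other 39 members lie between -0.67 and 0.74.

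The sequences before the annotated starts of the 6 members that passed with voom are shown because some of these genes were lower and some higher, so that their promoters can be set side by side. Each is the 250 bases before the outermost RefSeq start (GRCm38.p6), 5′ to 3′ on the gene's strand. RefSeq starts can differ from those of the deposited rows. The windows of Syt1 and Sypl reach into the span of their rows, which for Sypl starts at chr12:32953891. Capitals mark matches, on either strand, to the cAMP response element TGACGTCA, its half-site TGACG, the GC box GGGCGG, the E-box CACGTG and the palindromic NRF1 site, and on the gene's strand to the TATA box TATAAA. The half-site lies within the full element.
Syt1, chr10:109010976-109011225, minus strand: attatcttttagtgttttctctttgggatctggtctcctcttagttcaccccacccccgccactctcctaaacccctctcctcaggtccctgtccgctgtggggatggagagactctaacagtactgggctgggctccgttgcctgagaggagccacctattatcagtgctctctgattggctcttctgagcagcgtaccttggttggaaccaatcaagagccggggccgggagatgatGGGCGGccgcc
Synj1, chr16:91011309-91011558, minus strand: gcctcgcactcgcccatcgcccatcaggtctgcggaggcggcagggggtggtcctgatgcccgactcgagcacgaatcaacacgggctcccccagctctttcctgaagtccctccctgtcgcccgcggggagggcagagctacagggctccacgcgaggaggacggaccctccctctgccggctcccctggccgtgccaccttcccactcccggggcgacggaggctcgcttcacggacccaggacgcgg
Snap91, chr9:86880709-86880958, minus strand: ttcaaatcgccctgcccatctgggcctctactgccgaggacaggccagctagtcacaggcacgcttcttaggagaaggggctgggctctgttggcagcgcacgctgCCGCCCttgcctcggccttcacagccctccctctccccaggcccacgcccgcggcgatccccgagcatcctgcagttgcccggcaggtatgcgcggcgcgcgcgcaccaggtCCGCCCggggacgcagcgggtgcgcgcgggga
Sypl, chr12:32953695-32953944, plus strand: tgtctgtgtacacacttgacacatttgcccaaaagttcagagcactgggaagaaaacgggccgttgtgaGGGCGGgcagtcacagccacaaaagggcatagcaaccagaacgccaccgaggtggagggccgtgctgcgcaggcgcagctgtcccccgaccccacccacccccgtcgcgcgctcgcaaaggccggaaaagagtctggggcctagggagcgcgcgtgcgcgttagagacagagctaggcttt
Sncb, chr13:54766596-54766845, minus strand: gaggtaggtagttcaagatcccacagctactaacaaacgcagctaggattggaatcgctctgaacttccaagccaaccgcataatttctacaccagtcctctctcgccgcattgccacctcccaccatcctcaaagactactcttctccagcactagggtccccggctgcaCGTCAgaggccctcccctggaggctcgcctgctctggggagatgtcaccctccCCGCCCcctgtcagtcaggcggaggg
Ppfia2, chr10:106470060-106470309, plus strand: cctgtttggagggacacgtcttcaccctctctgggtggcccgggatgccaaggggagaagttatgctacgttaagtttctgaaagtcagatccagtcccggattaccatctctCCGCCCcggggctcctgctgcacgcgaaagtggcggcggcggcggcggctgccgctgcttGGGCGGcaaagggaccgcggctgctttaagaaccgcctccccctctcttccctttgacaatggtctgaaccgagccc

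No full cAMP response element lay in any of these 6 windows, and 1.599% of the 27025 genes in the RefSeq table had one. Of the 35 members with an entry there, 2 had one, Syn1 and Sh3gl2, neither of which passed a test. The half-site was found before Sncb alone of the 6 (17.8% of all genes had it). A GC box lay in each of the 6 windows except that of Synj1, against 33.0% of all genes and 25 of the 35 matched members. The E-box (6.04% of all genes), the NRF1 site (0.777%) and the TATA box (8.13%) had no match in the 6 windows. GC content was 71.2% before both Synj1 and Snap91, 62.4% before both Sypl and Ppfia2, 58.8% before Sncb and 56.4% before Syt1. The median was 62.4% over the 35 members and 52.0% over all genes.

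Among the calcium sensors, Syt1, the sensor of fast synchronous release and the most abundant synaptotagmin among the members, was lower in CS. Syt10, outside the member list, was about as high (69.0 ± 36.8 in Con and 36.6 ± 2.66 RPKM in CS), with overlapping groups. Con libraries 1, 2 and 3 had 66.3, 52.0 and 87.7 RPKM of Syt1, and CS libraries 1, 2 and 3 had 34.8, 36.7 and 27.3 RPKM. Every CS library lay below every Con library, and the means were 68.7 ± 17.9 in Con and 32.9 ± 4.93 RPKM in CS, a 2.05-fold lower level (log2 fold change -1.04 ± 0.23 SE, limma adjusted p = 0.113; limma voom adjusted p = 0.0137). With library totals Syt1 no longer passed (limma voom log2 fold change -0.67, adjusted p = 0.0590). Its row spans chr10:108497650-109010982 on the minus strand of GRCm38 and counts 8338 bases of exon.

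None of the other synaptotagmins passed a test. Syt11, a family member that does not bind calcium, had the second smallest p of the group with an estimate above 0 (18.4 ± 1.69 in Con and 24.7 ± 3.63 RPKM in CS; log2 fold change 0.41 ± 0.18 SE, limma adjusted p = 0.415), and its CS libraries all lay above its Con libraries. Syt5, close to Syt1 in sequence, was at 10.4 ± 1.61 in Con and 15.4 ± 4.25 RPKM in CS (log2 fold change 0.54 ± 0.26 SE, limma adjusted p = 0.469), and its groups overlapped. On the log2 scale Syt2, the fast sensor of brainstem and other rapid synapses, differed by 0.21 ± 0.31 SE and Syt4, which resembles Syt11, by 0.13 ± 0.29 SE. Syt7, the slow high-affinity sensor of asynchronous release and facilitation, lay below 0 like Syt1 but with overlapping groups (log2 fold change -0.44 ± 0.26 SE, limma adjusted p = 0.560). Syt4 shares 14.7% of its exon bases with Gm26658 on the opposite strand, and how many of its 408 reads are its own was not measured.

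Because a share within a library does not depend on the scaling between libraries, the levels of related genes were also set against each other within each library. The synaptotagmin sum covers the 6 members only, so Syt10 and others outside the member list are left out. Of this summed RPKM, Syt1 held 53.9% in Con library 1, 47.6% in Con library 2 and 61.0% in Con library 3. In CS it held 33.2% in library 1, 33.0% in library 2 and 32.5% in library 3. The mean share was thus 54.2% ± 6.68 in Con and 32.9% ± 0.403 in CS (SD, n = 3 per group; exact two-sided permutation p = 0.1, the smallest that 3 against 3 libraries can give). The shares of Syt11 (14.96% ± 3.21 in Con and 24.7% ± 1.37 in CS) and Syt5 (8.51% ± 2.42 and 15.2% ± 2.24) were higher in every CS library. Those of Syt2 and Syt4 were so as well. The shares of a library add up to a fixed total, so a lower share of Syt1 raises the summed share of the other members. The higher shares are therefore no sign of a rise in each gene's own level. The levels of Syt2, Syt4 and Syt5 overlapped between the groups. Syt7 held a like share in both groups, 8.95% ± 2.83 and 8.35% ± 3.03.

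**Figure D2:**
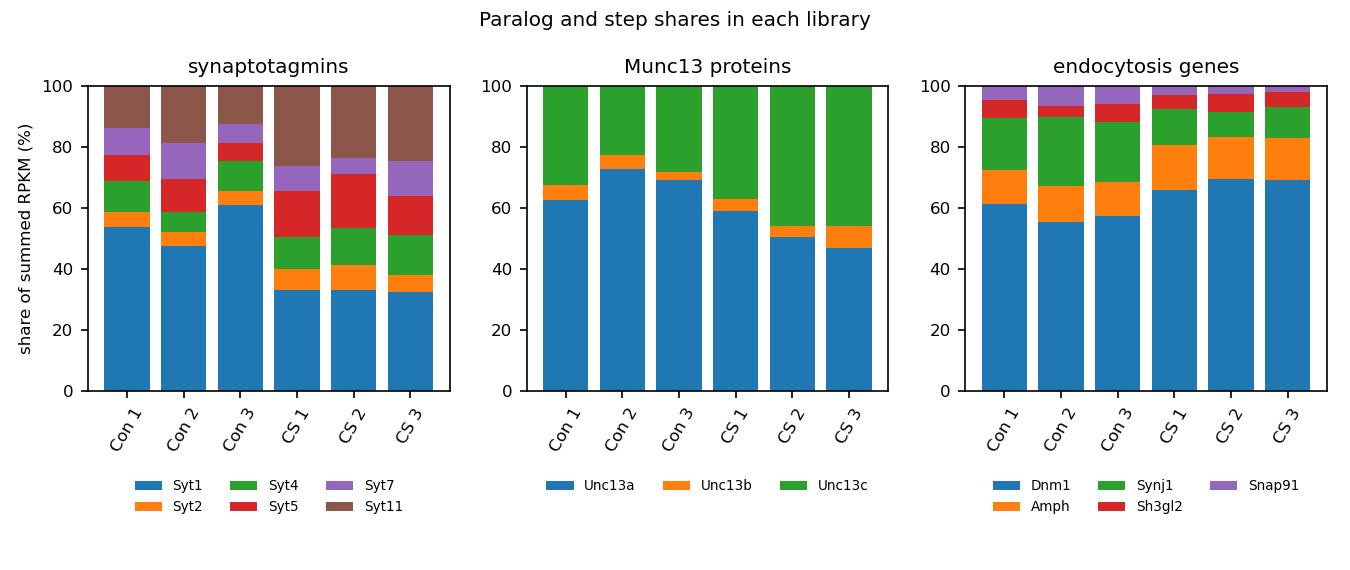
Share of summed RPKM, in percent, that each member held within the member synaptotagmins, the Munc13 proteins and the endocytosis genes in each of the 6 libraries (stacked bars). Syt1 takes 47.6% to 61.0% of the synaptotagmin sum in Con and 32.5% to 33.2% in CS, and the Unc13a and Synj1 segments are likewise smaller in CS.

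Among the endocytosis genes the estimates lay on both sides of 0. Synj1 encodes synaptojanin, the lipid phosphatase that uncoats clathrin-coated vesicles. Its level was 22.1, 27.8 and 23.7 RPKM in Con libraries 1, 2 and 3, and 15.2, 11.3 and 12.7 RPKM in CS libraries 1, 2 and 3. The groups did not overlap, with means of 24.6 ± 2.95 in Con and 13.1 ± 1.98 RPKM in CS (1.88-fold lower; log2 fold change -0.91 ± 0.19 SE, limma adjusted p = 0.0954; limma voom adjusted p = 0.0155). Synj1 had the smallest p of all members in the log2 RPKM model.

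Snap91 encodes AP180, which assembles clathrin on the membrane and sorts synaptobrevin into new vesicles. For Snap91, Con libraries 1, 2 and 3 gave 6.16, 8.10 and 7.19 RPKM and CS libraries 1, 2 and 3 gave 3.99, 3.65 and 2.44 RPKM. Again all CS libraries lay below all Con libraries, and the means were 7.15 ± 0.969 in Con and 3.36 ± 0.814 RPKM in CS (2.14-fold lower; log2 fold change -1.09 ± 0.29 SE, limma adjusted p = 0.167; limma voom adjusted p = 0.0201). Dnm1, the neuronal dynamin that severs the vesicle neck and the most abundant member of this step, had an estimate above 0 that passed only in voom with library totals (limma voom log2 fold change 0.69, adjusted p = 0.0478). Dnm1 stood at 80.0, 68.1 and 68.9 RPKM in Con libraries 1, 2 and 3 and at 86.0, 94.3 and 88.5 RPKM in CS libraries 1, 2 and 3. Its CS libraries all lay above its Con libraries (log2 fold change 0.31 ± 0.14 SE, limma adjusted p = 0.420).

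Amphiphysin (Amph), which bends membrane and recruits dynamin, was at 14.2 ± 0.354 in Con and 18.5 ± 0.594 RPKM in CS (log2 fold change 0.38 ± 0.15 SE, limma adjusted p = 0.359), with no overlap of the groups. Endophilin A1 (Sh3gl2), the partner that brings synaptojanin to the vesicle neck, was at 6.37 ± 1.598 in Con and 6.76 ± 1.01 RPKM in CS (log2 fold change 0.10 ± 0.27 SE, limma adjusted p = 0.914) and its groups overlapped. Within the summed RPKM of the 5 endocytosis genes, a grouping chosen after the values were seen, Synj1 made up 19.8% ± 2.82 in Con and 9.99% ± 1.66 in CS, Snap91 5.76% ± 0.946 and 2.55% ± 0.591, and Dnm1 58.0% ± 3.10 and 68.2% ± 1.93 (SD, n = 3 per group). None of these 3 shares overlapped between the groups.

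**Figure D3:**
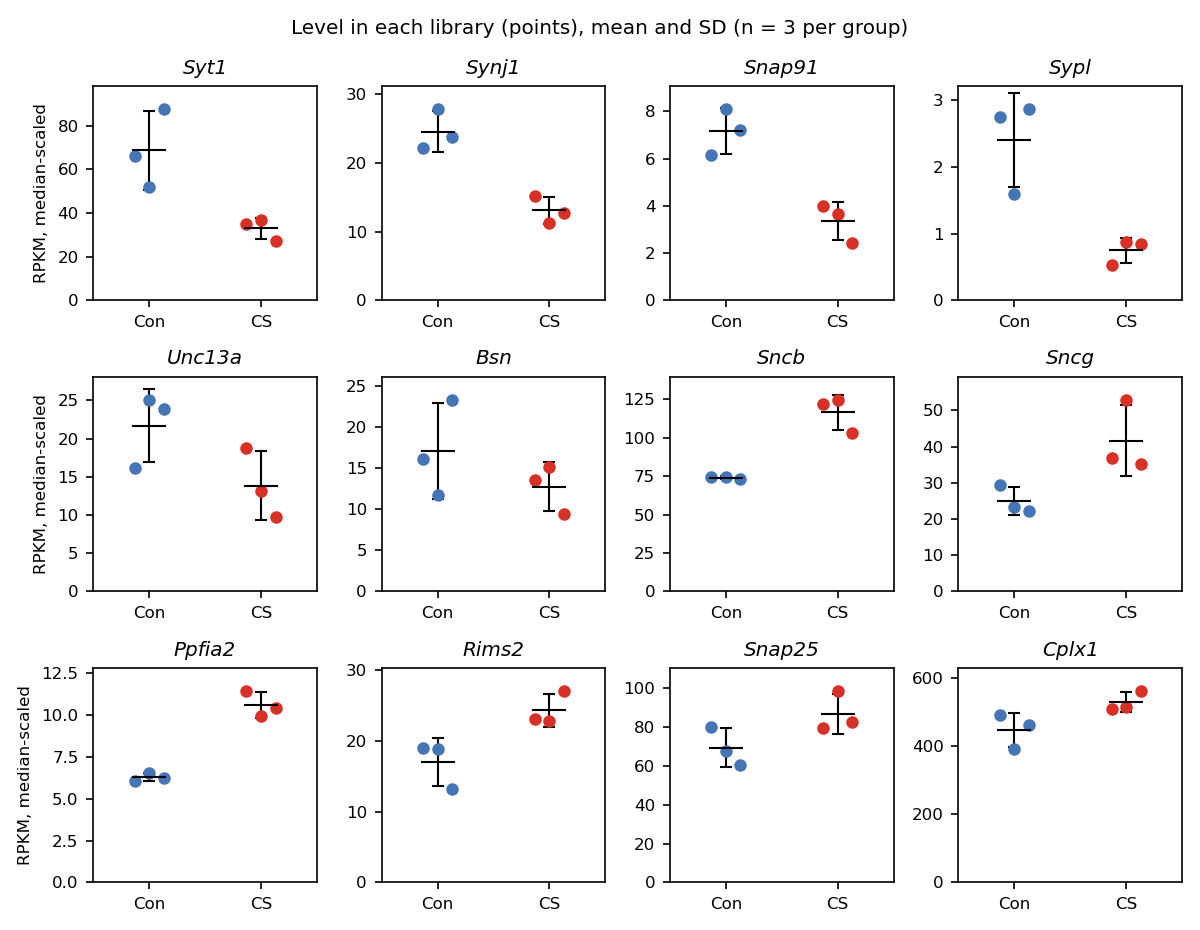
Median-scaled RPKM of 12 members in each library (points: Con blue, CS red), with the mean and SD of each group (n = 3); each vertical axis starts at 0. In Syt1, Synj1, Snap91 and Sypl every CS point lies below every Con point, in Sncb, Sncg, Ppfia2, Rims2 and Cplx1 every CS point lies above, and in Unc13a, Bsn and Snap25 the groups overlap.

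The vesicle proteins had the highest median of the 5 steps, 0.37, with 8 higher and 4 lower estimates (11 and 1 in voom with library totals). Beta-synuclein (Sncb), an abundant vesicle-associated chaperone-like protein, had the smallest p of the group. Con libraries 1, 2 and 3 had 74.5, 74.5 and 72.8 RPKM of Sncb, and CS libraries 1, 2 and 3 had 122, 125 and 103 RPKM. The groups did not overlap (73.9 ± 0.948 in Con and 116 ± 11.6 RPKM in CS; 1.57-fold higher; log2 fold change 0.65 ± 0.14 SE, limma adjusted p = 0.0999; limma voom adjusted p = 0.0333). Gamma-synuclein (Sncg), a relative found in subsets of neurons, was at 24.997 ± 3.93 in Con and 41.7 ± 9.75 RPKM in CS (log2 fold change 0.72 ± 0.22 SE, limma adjusted p = 0.229), and its CS libraries all lay above its Con libraries, so that Sncb held a like share of the pair in both groups, 74.8% ± 2.77 in Con and 73.8% ± 3.35 in CS.

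Synaptophysin (Syp), the major membrane protein of small vesicles, had 75.7 ± 5.91 in Con and 92.1 ± 16.1 RPKM in CS (log2 fold change 0.27 ± 0.17 SE, limma adjusted p = 0.589). Its row shares 16.8% of its exon bases with Gm14703 on the opposite strand, which held 2432 reads against 3998 for Syp, so part of these reads may not be its own. Sypl, a broadly expressed relative of synaptophysin, was the fourth lower member. Its level was 2.75, 1.596 and 2.86 RPKM in Con libraries 1, 2 and 3, and 0.529, 0.867 and 0.846 RPKM in CS libraries 1, 2 and 3. No CS library reached the lowest Con library (2.98-fold lower; log2 fold change -1.57 ± 0.49 SE, limma adjusted p = 0.248; limma voom adjusted p = 0.0485), but the gene rested on 88 reads, 53 in Con and 35 in CS.

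The SV2 proteins are transporter-like membrane proteins of vesicles that modulate release. Sv2a, the main form, had 42.9 ± 0.932 in Con and 56.7 ± 4.27 RPKM in CS (log2 fold change 0.40 ± 0.13 SE, limma adjusted p = 0.279) and Sv2c, the form of the basal ganglia, 6.15 ± 0.682 in Con and 8.82 ± 1.11 RPKM in CS (log2 fold change 0.51 ± 0.21 SE, limma adjusted p = 0.399), both with CS libraries all above Con, while Sv2b, at 4.10 ± 0.973 in Con and 3.63 ± 1.397 RPKM in CS, overlapped. Within the family Sv2a held 80.7% ± 0.556 of the SV2 sum in Con and 81.9% ± 2.69 in CS. Of the synapsins, Syn1 was at 11.5 ± 1.62 in Con and 15.7 ± 3.18 RPKM in CS and Syn2 at 5.55 ± 1.18 in Con and 8.71 ± 1.9976 RPKM in CS (log2 fold change 0.63 ± 0.28 SE, limma adjusted p = 0.424), with overlapping groups in both. Syn3, the form of immature neurons, differed by -0.01 ± 0.33 SE on the log2 scale and shares 14.1% of its exon bases with Timp3 on the opposite strand. Of the synaptogyrins, tetraspan relatives of synaptophysin, Syngr1 differed by 0.34 ± 0.18 SE on the log2 scale with CS libraries all above Con, and Syngr3, on 108 reads, by -0.20 ± 0.43 SE with overlapping groups.

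Of the 9 genes of the fusion step itself none passed in limma, at an unadjusted p under 0.05 or in voom under either scaling (0 each). With median scaling 8 of the 9 estimates lay above 0, the median was 0.26 (0.16 without Con library 3), and 3 genes (33.3%, against 11.6% of rows) had all CS libraries above Con. As deposited 8 genes did (88.9%, against 29.5% of rows), with a median of 0.63. Cplx1, which encodes the complexin with the highest level of all members, ranked 94th by mean RPKM among the 20550 tested rows. For Cplx1, Con libraries 1, 2 and 3 gave 489.8, 391 and 461 RPKM and CS libraries 1, 2 and 3 gave 508, 516 and 562 RPKM. Every CS library lay above every Con library, by a small margin (448 ± 50.7 in Con and 529 ± 29.0 RPKM in CS; log2 fold change 0.24 ± 0.17 SE, limma adjusted p = 0.613). Cplx2 was at 229 ± 23.9 in Con and 237 ± 11.3 RPKM in CS, and Cplx1 held 66.1% ± 3.08 of the complexin sum in Con and 69.0% ± 0.162 in CS.

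Of the genes for the 3 core SNARE proteins of neurons, Stx1a alone had all CS libraries above Con. Snap25 had the smallest p of the step. Snap25 stood at 80.1, 67.8 and 60.3 RPKM in Con libraries 1, 2 and 3 and at 79.6, 98.7 and 82.5 RPKM in CS libraries 1, 2 and 3. Its groups overlapped (69.4 ± 10.04 in Con and 86.9 ± 10.3 RPKM in CS; log2 fold change 0.33 ± 0.17 SE, limma adjusted p = 0.492). Stx1a, the plasma membrane syntaxin, had 15.2 ± 1.58 in Con and 18.7 ± 1.23 RPKM in CS (log2 fold change 0.29 ± 0.16 SE, limma adjusted p = 0.533) with no overlap, and the vesicle SNARE Vamp2 had 28.4 ± 5.57 in Con and 27.1 ± 1.57 RPKM in CS (log2 fold change -0.05 ± 0.19 SE, limma adjusted p = 0.935). Vamp1, which serves synapses of spinal cord and brainstem, was at 4.34 ± 0.519 in Con and 6.13 ± 1.84 RPKM in CS, so Vamp2 made up 86.4% ± 3.89 of the pair in Con and 81.6% ± 5.25 in CS, with overlapping groups. The ATPase gene Nsf (0.26 ± 0.22 SE) and its adaptors Napa (0.15 ± 0.23 SE) and Napb (0.40 ± 0.25 SE) completed the step, and of these Napb alone had CS libraries all above Con.

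The active zone had a median of -0.0015, with 5 estimates above and 6 below 0 (9 and 2 in voom with library totals). Liprin-alpha2 (Ppfia2), a scaffold that recruits release components, had the smallest p of the step and passed with voom. Con libraries 1, 2 and 3 had 6.08, 6.53 and 6.24 RPKM of Ppfia2, and CS libraries 1, 2 and 3 had 11.4, 9.93 and 10.4 RPKM. The groups were well apart (6.29 ± 0.228 in Con and 10.6 ± 0.765 RPKM in CS; 1.67-fold higher; log2 fold change 0.74 ± 0.18 SE, limma adjusted p = 0.148; limma voom adjusted p = 0.0468). Ppfia3, its relative, was at 21.2 ± 1.25 in Con and 28.2 ± 1.54 RPKM in CS (log2 fold change 0.41 ± 0.14 SE, limma adjusted p = 0.299), also without overlap, and its share of the liprin pair was 77.1% ± 1.347 in Con and 72.7% ± 0.708 in CS.

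RIM proteins link vesicles and calcium channels. Rims1, the most abundant member of the step, did not separate the groups. Its level was 64.1, 53.9 and 51.8 RPKM in Con libraries 1, 2 and 3, and 50.8, 48.2 and 63.6 RPKM in CS libraries 1, 2 and 3. The fit gave a log2 fold change -0.07 ± 0.17 SE, limma adjusted p = 0.907. Rims2 was at 17.0 ± 3.35 in Con and 24.4 ± 2.35 RPKM in CS with CS libraries all above Con (log2 fold change 0.53 ± 0.20 SE, limma adjusted p = 0.3599), and the share of Rims1 in the pair was 77.0% ± 2.85 in Con and 68.9% ± 1.18 in CS.

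Munc13 proteins prime vesicles by opening syntaxin. Unc13a, the main form of forebrain synapses, had the lowest estimate of the step but did not separate the groups. For Unc13a, Con libraries 1, 2 and 3 gave 16.2, 25.05 and 23.9 RPKM and CS libraries 1, 2 and 3 gave 18.7, 13.1 and 9.68 RPKM. Con library 1 lay below CS library 1, and the fit gave a log2 fold change -0.67 ± 0.30 SE, limma adjusted p = 0.427. Unc13c, best known from cerebellum, was at 8.65 ± 0.973 in Con and 11.1 ± 1.37 RPKM in CS (log2 fold change 0.35 ± 0.20 SE, limma adjusted p = 0.542), and Unc13b at 1.26 ± 0.357 in Con and 1.20 ± 0.303 RPKM in CS. Of the Munc13 sum Unc13a made up 62.6% in Con library 1, 72.6% in Con library 2 and 69.2% in Con library 3. In CS it made up 59.0% in library 1, 50.6% in library 2 and 46.8% in library 3, with no overlap.

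The giant scaffold proteins Bassoon (Bsn; 17.1 ± 5.85 in Con and 12.7 ± 2.99 RPKM in CS) and Piccolo (Pclo; 33.4 ± 8.68 in Con and 31.5 ± 6.43 RPKM in CS) had overlapping groups, with changes of -0.39 ± 0.31 SE and -0.08 ± 0.25 SE. The ELKS genes Erc1 (0.21 ± 0.24 SE) and Erc2 (-0.0015 ± 0.21 SE) overlapped as well, although the share of Erc2 in the pair, 69.6% ± 0.839 in Con and 66.3% ± 0.856 in CS, did not. Over the 13 families compared, the share of the leading gene was lower in all CS libraries in 5 (Syt1, Unc13a, Rims1, Erc2 and Ppfia3) and higher in all of them in none. Each of these 5 had the smallest exact permutation p possible, 0.1 (0.26 after Benjamini-Hochberg adjustment over the 13), so none can pass a threshold of 0.05.

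The rows of the release machinery differ widely in length, from 852 bases of exon (Sncg) to 22746 (Unc13b), and the longer members had the lower estimates. The median change was 0.41 over the 6 members under 3 kb, 0.31 over the 11 members of 3 to 6 kb and 0.05 over the 26 members above 6 kb, where 13 were below 0. Over the 43 members the Spearman correlation of length and change was -0.38, given as a description, since the genes share their libraries. Over the 10456 tested rows with at least 60 reads it was 0.03, and the median change there was 0.00, 0.03 and 0.04 in the same length classes. The 4 members with all CS libraries below Con had between 7535 and 9126 bases of exon, and Ppfia2, with 8021, was among the highest.

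**Figure D4:**
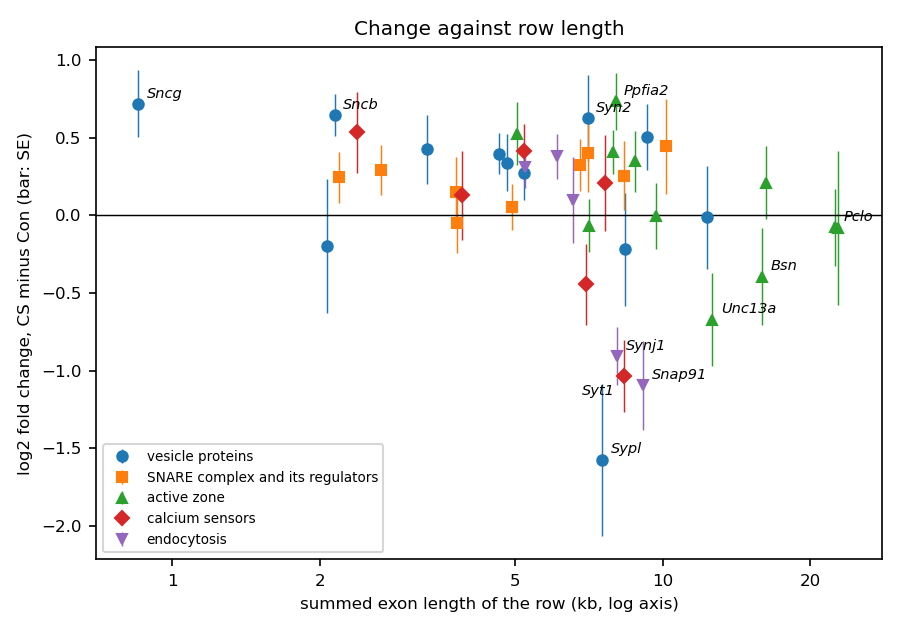
Log2 fold change (bars, SE) of the 43 members against the summed exon length of their rows in kilobases (log axis), with symbols for the 5 steps. Below 0 lie 1 of the 6 members under 3 kb, 1 of the 11 members of 3 to 6 kb and 13 of the 26 longer ones, and those above 6 kb spread from -1.57 (Sypl) to 0.74 (Ppfia2).

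Other genes of the pathway, a list of 77 found in the table, included further genes of the same steps. Rankings within a step given above cover the members alone. Estimates of the 75 tested genes lay above 0 in 40 and below in 35 with median scaling (median 0.06), and in voom with library totals in 55 and 17 of 72. The CS libraries all lay above Con in 18 genes (23.4%, against 11.6% of rows with at least 60 reads) and below in 7 (9.09% against 14.9%). As deposited they did in 29 (37.7% against 29.5%) and 3 (3.9% against 8.31%), so the lower counts were not above the background. With library totals voom passed 7 higher and 2 lower genes (2.60% and 2.42% of all rows). In the log2 RPKM model 1 passed (0.968% of all rows), the calcium sensor gene Doc2a. Doc2a encodes a high-affinity sensor of spontaneous and asynchronous release. Doc2a stood at 52.2, 42.6 and 50.5 RPKM in Con libraries 1, 2 and 3 and at 17.9, 19.6 and 22.2 RPKM in CS libraries 1, 2 and 3. The groups did not overlap (48.4 ± 5.14 in Con and 19.9 ± 2.19 RPKM in CS; 2.43-fold lower; log2 fold change -1.28 ± 0.16 SE, limma adjusted p = 0.0283), and Doc2a also passed with voom under both scalings (limma voom adjusted p = 0.00288 with medians and 0.0372 with library totals). In the log2 RPKM model no gene of this list passed without Con library 1 or 3 or without CS library 1, 2 or 3.

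With voom and median scaling 3 of the 72 genes with at least 60 reads passed, 2 lower and 1 higher (6.29% and 0.258% of all rows). Those beside Doc2a were chosen after their values were seen. Cadps, which encodes the CAPS priming factor of dense-core vesicles, was lower. Con libraries 1, 2 and 3 had 113, 90.5 and 145 RPKM of Cadps, and CS libraries 1, 2 and 3 had 52.5, 52.7 and 43.5 RPKM. Its groups were apart (log2 fold change -1.20 ± 0.21 SE, limma adjusted p = 0.0620; limma voom adjusted p = 0.00457, and 0.0303 with library totals). Hspa8, the chaperone that strips clathrin from vesicles, was higher (99.1 ± 11.9 in Con and 151 ± 8.25 RPKM in CS; log2 fold change 0.62 ± 0.15 SE, limma adjusted p = 0.136; limma voom adjusted p = 0.0230). Of the 10 further calcium sensor genes in the list, Doc2a alone passed; 9 estimates lay below 0 in the log2 RPKM model, 7 in voom with median scaling and 4 in voom with library totals.

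The voom results rested on single libraries to different degrees. With 1 library left out, Syt1 passed in 5 of 6 cases (not without CS library 3), Snap91 in 4 (not without Con library 3 or CS library 3) and Synj1 in 3 (not without Con library 3, CS library 2 or CS library 3). Sypl and Sncb passed only without Con library 2, and Ppfia2 in none. With the replicate block in voom, neither Sncb (limma voom adjusted p = 0.0976) nor Ppfia2 (0.142) passed, and the 4 lower members did. The block joins libraries by number, which marks no shared animal in the labels, and in the log2 RPKM model it left 0 rows called. That the 4 lower members passed with it is therefore no sign of a firmer result. Unc13a, which did not pass with all libraries, passed as lower without Con library 1 or CS library 1. The estimates themselves kept their direction in every one of these fits, from -1.23 to -0.81 for Syt1, -1.02 to -0.81 for Synj1, -1.32 to -0.92 for Snap91, -1.88 to -1.31 for Sypl, 0.61 to 0.73 for Sncb and 0.68 to 0.79 for Ppfia2.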

How the data were processed

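The deposited table gives RPKM for 29547 rows in 6 columns, 3 Con and 3 CS, with coordinates and exon length per row. Per the submitters' processing notes, the authors used Trimmomatic 0.36, featureCounts, Subread 1.5.1 and GRCm38 (mm10); an aligner and a strand setting are not given in the sources used, so reads of overlapping antisense rows may be shared. RPKM times length came out as whole reads for 100% of values above 0 (tolerance 0.01 read), so reads were computed from the deposited RPKM. Of precision, 1 read on 1 kb equals 0.427 to 1.31 RPKM.

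Rows with a mean of at least 0.5 RPKM were tested on log2(RPKM + 0.1) after median scaling with limma (version 3.58.1; lmFit and trended eBayes, under R 4.3.3), adjusted over all rows. Voom used rows with at least 60 reads and library totals times each library's median deviation over those rows. Both models were checked on simulated reads. Fold changes of low rows are understated by the pseudocount. All members may be named; those past a threshold, the 2 with the smallest p and the most abundant of each step are given in full. Members and lists were chosen with earlier results of these data known. Vamp7 and Tspoap1 of the pathway list had no row under these symbols. Alternatives are given in the closing section.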

Additional observations from a re-analysis of the deposited data

How the results depend on the processing

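The fits were repeated with another pseudocount, filter, scaling or variance trend, with voom, with a replicate block, and without each library in turn; the log2 RPKM model on rows with at least 60 reads, voom with the replicate block and voom without each library were chosen after seeing the data. Depth limits the low members most: Sypl rests on 88 and Syngr3 on 108 reads.

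The number of rows called, 199, became 112 with a pseudocount of 1 RPKM, 107 without a filter, 65 as deposited, 110 with quantile normalization, 685 with voom, 525 with voom on library totals, 428 on rows with at least 60 reads and 747 with voom and the replicate block. With the replicate block in the log2 RPKM model 0 rows, 0 members and 0 other presynaptic genes were called. Same-numbered Con and CS libraries did not deviate together (r = -0.40, -0.18 and -0.06 over rows with at least 60 reads), and no number marks a shared animal in the labels. Leaving out 1 library gave 8 to 297 rows, and 274 to 803 with voom.

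Of the members, 0 were called in the log2 RPKM model under each of its alternatives but quantile normalization, with which Sncb passed as 1 (limma adjusted p = 0.0492). Voom called 6, 7 with library totals and 4 with the replicate block (0 higher and 4 lower, so without Sncb and Ppfia2), and 0 to 5 without 1 library. The other presynaptic genes, with 1 called, had 0 with a pseudocount of 1, without a filter, as deposited, with quantile normalization and without a trend, 3 with voom, 9 with library totals, 2 on rows with at least 60 reads, 3 with voom and the replicate block, and 0 to 2 without 1 library (2 to 6 with voom).

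The median log2 fold change of the members, 0.24, was 0.62 as deposited, 0.48 with quantile normalization and 0.62 with voom on library totals. In the same order it was 0.74, 0.62 and 0.74 for vesicle proteins, 0.63, 0.52 and 0.65 for the SNARE step, 0.37, 0.23 and 0.39 for the active zone, 0.54, 0.35 and 0.52 for calcium sensors, and 0.47 and 0.49 for endocytosis as deposited and with library totals. A filter at 2 RPKM gave 0.14 for the active zone. Leaving out 1 library, in either model, gave -0.14 to 0.21 for the active zone, -0.081 to 0.34 for calcium sensors and -0.13 to 0.24 for endocytosis. Among the paralog shares, that of Syt1 differed by -24.5 to -17.8 percentage points without 1 library. The difference in share changed sign for Sv2a (1.21 to -0.151) and Sncb (-0.993 to 0.824) without CS library 2 and for Pclo (4.93 to -1.56) without Con library 3, and that of Napb ran from 0.16 to 8.64.

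Estimates near 0 changed sign, and the cause was not tested beyond the shift that a change of scaling gives every row: Vamp2 (0.045), Rims1 (0.035), Pclo (0.022) and Erc2 (0.084) with a pseudocount of 1 RPKM; Cplx2 (-0.028) without a filter; Syn3 (0.019) and Erc2 (0.030) with a filter at 2 RPKM. Others were Syn3 (0.36), Syngr3 (0.17), Sv2b (0.15), Vamp2 (0.32), Unc13b (0.29), Rims1 (0.30), Pclo (0.30) and Erc2 (0.37) as deposited; Syn3 (0.12), Vamp2 (0.21), Rims1 (0.23), Pclo (0.19) and Erc2 (0.22) with quantile normalization. Likewise Syn3 (0.043) and Erc2 (0.026) with voom, Syn3 (0.41), Syngr3 (0.14), Sv2b (0.23), Vamp2 (0.34), Unc13b (0.36), Rims1 (0.32), Pclo (0.31) and Erc2 (0.39) with voom on library totals, and Syn3 (0.0038) and Erc2 (0.014) on rows with at least 60 reads, Syn3 (0.026) and Erc2 (0.023) with voom and the replicate block. Leaving out 1 library, with either model, turned the sign of Syn3 (-0.11 to 0.11), Vamp2 (-0.23 to 0.075), Rims1 (-0.19 to 0.040), Pclo (-0.24 to 0.11), Erc2 (-0.20 to 0.12), Unc13b (-0.28 to 0.21), Syt4 (-0.19 to 0.38), Sh3gl2 (-0.13 to 0.24), Cplx2 (-0.032 to 0.11), Syt2 (-0.033 to 0.47), Syngr3 (-0.68 to 0.12) and Sv2b (-0.51 to 0.054). None of these members passed a test in any of these fits.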
